A study of Mus musculus with 2 samples.

Results

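Cystatin C (Cst3), a secreted inhibitor of cysteine cathepsins, and 9 lysosomal proteases were followed across the skin dendritic cells of lymph nodes from naive and papain-immunized mice. The proteases were cathepsins A, B, C, D, H, L, S and Z (Ctsa, Ctsb, Ctsc, Ctsd, Ctsh, Ctsl, Ctss and Ctsz) and legumain (Lgmn), and the 10 genes were taken by name from the 18049 genes of the expression data. Live MHCIIhi CD11c+ B220- cells of B6 mice were sorted, stained with DNA-barcoded antibodies and sequenced by CITE-seq, which counts mRNA molecules (unique molecular identifiers, UMIs) and bound antibody in the same cell. One library held cells of unimmunized mice (naive, 3471 cells). The other held cells taken on day 1 after footpad injection of 5 µg ovalbumin (OVA) with 50 µg papain (papain, 7596 cells).

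The naive cells came, per the study's methods, from pooled skin-draining lymph nodes and the papain cells from popliteal lymph nodes, so immunization and lymph node site cannot be told apart. Each condition is 1 library, so no difference between conditions or classes has a replicate check and no p-value is given. All intervals are 95% intervals that cover counting error only (exact Poisson for levels, exact conditional for ratios, exact Clopper-Pearson for shares of cells). Levels are UMIs of a gene per 1000000 UMIs of the group (CPM). The kit counts the 3′ end of a molecule once, so a level does not scale with transcript length.

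The authors' antibody labels put 3042 naive cells in 5 classes. These were 440 Langerhans cells (LCs, the DCs of the epidermis), 578 cDC1s, and cDC2s split by surface CD301b into 658 CD301b-lo, 659 CD301b-int and 707 CD301b-hi cells (deposited as CD301b- cDC2, CD301bint cDC2 and CD301b+ cDC2). The same classes held 881, 235, 1470, 1827 and 2893 papain cells. Markers fitted the class name for LCs and in part that for cDC1s. Epcam was at 102 and 156 CPM in naive and papain LCs and at most 29.2 CPM in any other class, and Cd207, which encodes langerin, was at 45.7 and 58.9 CPM in LCs and at most 9.16 CPM elsewhere. Xcr1, which marks cDC1s, was at 16.9 and 9.44 CPM in cDC1s and at most 6.94 CPM elsewhere. The 6 listed cDC1 markers (Xcr1, Clec9a, Irf8, Wdfy4, Itgae, Tlr3) summed to 609 CPM in naive and 855 CPM in papain cDC1s. In LCs they summed to 375 and 533 CPM. Tlr3 had no UMI in papain cDC1s but was present in papain LCs and in each papain cDC2 class. Mgl2, the gene of CD301b, was at 15.2, 59.1 and 56.1 CPM in naive CD301b-lo, -int and -hi cDC2s and at 0.831, 0.476 and 1.21 CPM in the papain ones, so its mRNA did not separate the papain classes that the antibody defined. Of the naive mRNA clusters described below, cluster 5 had the most Mgl2, and the naive levels of Mgl2 were not recomputed without it. Unclassed droplets with a Cd3e or Trac UMI (237 naive, 241 papain) are given below as a reference and called non-DC droplets. Migratory DC genes (Ccr7, Fscn1, Cacnb3, Relb) summed to 2223 CPM in the naive and 1581 CPM in the papain ones. In the 5 classes of either library these genes summed to 5491 CPM or more. The part of DC RNA in the levels of these droplets was not tested. The libraries shared 2 cell barcodes. A naive cell had a median of 13764 UMIs and a papain cell 14738.

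Dendritic cells cut endocytosed protein into peptides in acidified endosomes and lysosomes and load these on MHC class II. Cathepsin S and, in other cells, cathepsin L remove the invariant chain from MHC class II, cathepsins B and D and legumain are endopeptidases, cathepsins A and Z are carboxypeptidases, cathepsin H is an aminopeptidase, and cathepsin C is a dipeptidyl peptidase that activates other proteases. Cathepsin D is an aspartic and cathepsin A a serine protease, and legumain is a cysteine protease of another family. The other cathepsins here are cysteine proteases of the family named after papain, the plant protease in the immunization. Cystatins inhibit papain and its mammalian relatives.

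The genes are spread over 7 mouse chromosomes in RefSeq's GRCm38.p6 annotation, the patch series of the mm10 build named in the submitters' processing notes. Cst3 (chr2:148871722-148875512), Ctsa (chr2:164832872-164841032) and Ctsz (chr2:174427494-174439039) lie on chromosome 2, and Ctsc (chr7:88278024-88315861) and Ctsd (chr7:142375910-142387827) on chromosome 7. Ctss is at chr3:95526786-95556405, Ctsh at chr9:90054267-90076095, Lgmn at chr12:102394082-102439728, Ctsl at chr13:64361890-64370772 and Ctsb at chr14:63122462-63145923. Promoter windows of 250 bases before to 50 after a transcript start were listed for 8 of the 10 genes. The letters CACGTG, which read the same on both strands and form the core of the sites that TFEB and its relatives bind in lysosomal promoters, were found in windows of 4 of these 8 genes (Ctsa, Ctsd, Ctsl and Lgmn). The 8 genes had 10 windows, 4 of them with these letters, and all mouse windows of this length held them in 7.15% of 32851 cases. The longer TCACGTGA, which contains CACGTG, was in 2 of the 10 windows (Ctsa and Ctsd) and in 0.974% of all windows. Whether these letters bear on the ratios below was not tested. A stretch of 30 bases is shown for each of the 4 genes with CACGTG. Capitals mark the match, and each is read 5′ to 3′ on the gene's strand (+ for Ctsa, - for the others) in GRCm38.p6.
Ctsa, chr2:164833743-164833772: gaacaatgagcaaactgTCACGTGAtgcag
Ctsd, chr7:142387908-142387937: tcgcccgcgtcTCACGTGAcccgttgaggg
Lgmn, chr12:102439124-102439153: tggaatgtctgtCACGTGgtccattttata
Ctsl, chr13:64370739-64370768: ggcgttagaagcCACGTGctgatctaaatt
These matches began 13, 99, 49 and 236 bases before the listed start, and Ctsd held a second CACGTG at 245 bases. For Ctsa, Lgmn and Ctsl the match lay inside the annotated gene, upstream of an internal start. A match is a description of these letters and not a measured binding site.

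Cst3 stood apart from the proteases in level. It was between the 7th and the 46th most abundant gene of every class and made up 49.7% (naive CD301b-lo cDC2s) to 76.3% (papain LCs) of the UMIs of the 10 genes. In naive cells Cst3 was at 3512 CPM (3461 to 3562) in LCs, 6072 (6023 to 6122) in cDC1s, and 2274, 2668 and 3165 CPM in CD301b-lo, -int and -hi cDC2s. In papain cells it was at 8886 CPM (8843 to 8929) in LCs, 8720 (8616 to 8825) in cDC1s, and 4189, 5005 and 4901 CPM in the cDC2 classes. All 5 papain classes were above their naive counterparts, and no neighbours in the order of the 10 groups had overlapping intervals. The non-DC droplets held Cst3 at 966 (naive) and 684 CPM (papain).

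Cathepsins H, S and Z formed the next tier. Ctsh was at 512, 498, 654, 642 and 638 CPM in naive LCs, cDC1s and CD301b-lo, -int and -hi cDC2s, and at 761, 855, 1091, 944 and 894 CPM in the papain ones. Ctsz was at 385, 536, 545, 541 and 551 CPM in the naive classes and at 941, 942, 820, 771 and 722 CPM in the papain classes. Every papain class was above every naive class for both genes. Ctss, the invariant chain protease, had the narrowest range, with 573, 388, 592, 601 and 584 CPM in naive and 529, 577, 585, 582 and 619 CPM in papain cells. The naive cDC1s were lowest and the papain LCs next, each with an interval clear of its neighbours in the order. The 3 genes were at 124, 180 and 138 CPM (Ctsh, Ctss, Ctsz) in the naive and 62.0, 159 and 95.1 CPM in the papain non-DC droplets.

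Cathepsins B and C and legumain were at intermediate levels. Ctsb was at 199, 306, 133, 152 and 134 CPM in the naive classes (same order) and at 202, 186, 124, 128 and 133 CPM in the papain classes, highest in naive cDC1s. Ctsc was at 70.4, 32.1, 172, 180 and 191 CPM in naive and at 140.0, 53.4, 173, 213 and 291 CPM in papain cells, highest in papain CD301b-hi cDC2s and lowest in cDC1s. Lgmn was at 74.1, 108, 94.2, 112 and 106 CPM in naive and at 118, 131, 182, 205 and 211 CPM in papain cells. The papain cDC2 classes were the highest for Lgmn, and the intervals of CD301b-int and -hi cDC2s overlapped.

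Cathepsins A, D and L were the least abundant. Ctsa was at 20.3, 11.6, 58.0, 52.9 and 63.2 CPM in the naive and at 30.03, 6.18, 34.3, 35.9 and 37.3 CPM in the papain classes. Ctsd was at 22.8, 26.8, 36.3, 41.5 and 31.8 CPM in naive and at 25.3, 16.3, 21.0, 21.4 and 24.7 CPM in papain cells. Ctsl was at 18.2, 8.85, 16.8, 12.8 and 8.67 CPM in naive and at 7.14, 4.56, 6.43, 3.44 and 3.95 CPM in papain cells. Ctsl was lower in papain than in naive cells of each class. For Ctsl and for Ctsd, intervals overlapped between all neighbours in the order of the 10 groups. The non-DC droplets held 31.9 and 28.3 CPM of Ctsa, 70.6 and 66.8 CPM of Ctsd and 16.8 and 12.8 CPM of Ctsl (naive, papain). Ctsd was therefore higher there than in any DC class, and the part of other cells' RNA in the DC levels of these 3 genes was not tested.

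**Figure D1:**
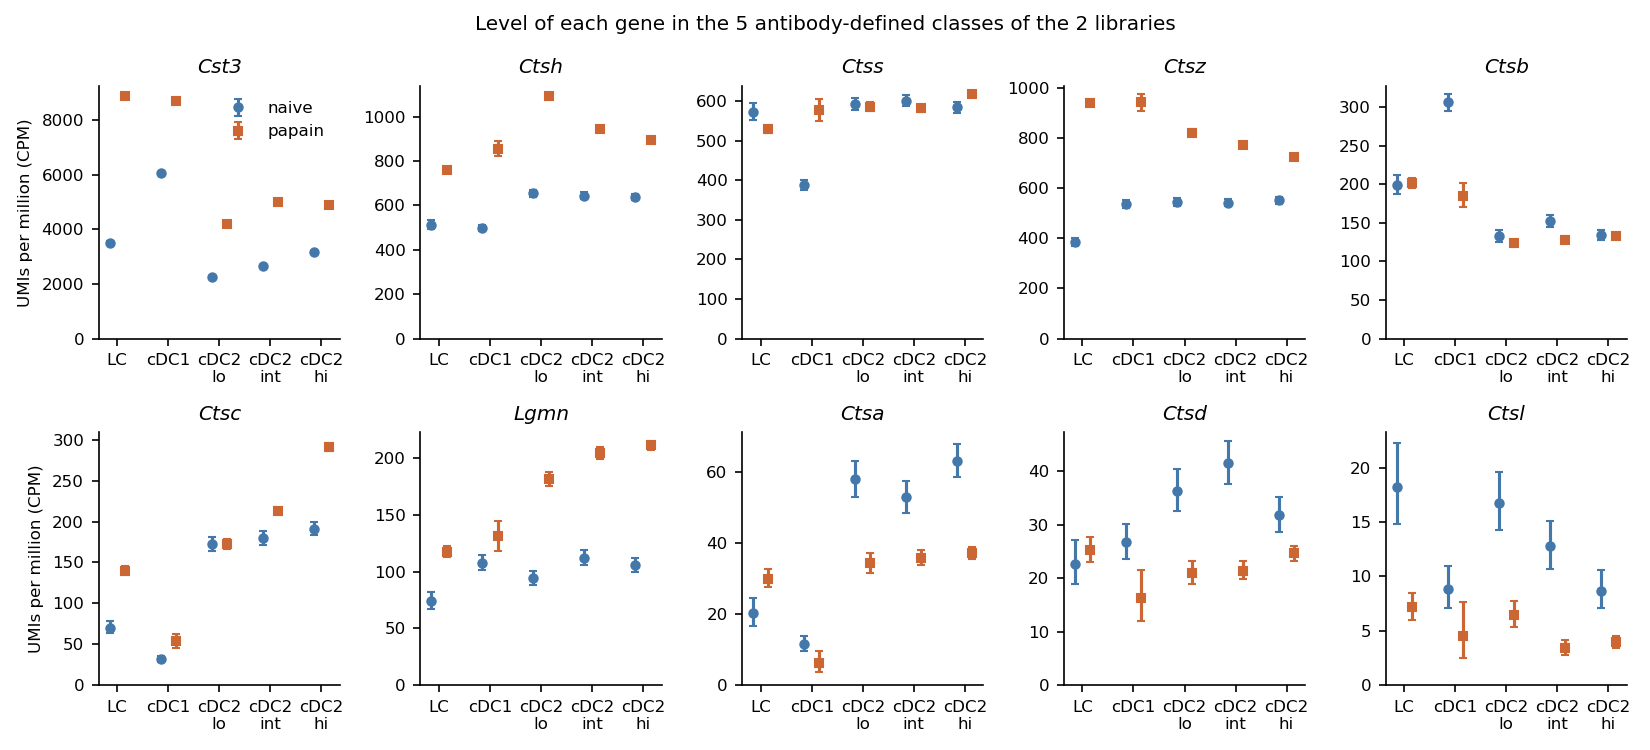
Level of each of the 10 genes (y axis, CPM) in the 5 antibody-defined classes (x axis) of the naive (blue circles) and papain (orange squares) libraries, with 95% Poisson intervals as bars. Cst3, Ctsh, Ctsz and Lgmn sit higher in papain than in naive cells of each class, Ctsl sits lower, and Ctsc is lowest in cDC1s.

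The share of cells with a UMI followed these tiers. Cst3 was seen in 98.2% to 100% of the cells of every class, and Ctsh, Ctss and Ctsz in 89.5% or more. Shares were also taken after thinning to 8392 UMIs, which leaves out shallower cells and kept 313 of 440 naive and 771 of 881 papain LCs, 531 of 578 and 207 of 235 cDC1s, and 652 of 707 and 2756 of 2893 CD301b-hi cDC2s. In these cells Ctsc was seen in 16.5% of naive and 24.9% of papain cDC1s and in 59.1% of naive and 71.6% of papain CD301b-hi cDC2s (unthinned 25.6%, 31.5%, 73.3% and 84.3%). Only 86 of 237 naive and 63 of 241 papain non-DC droplets were that deep, and their thinned share was 34.7% and 33.0% for Ctsc. The Ctsc share in cDC1s was below that of these deeper droplets. Lgmn was seen in 50.6% of naive and 73.8% of papain CD301b-hi cDC2s after thinning (67.5% and 87.2% unthinned) and in 10.1% and 3.32% of the same droplets. The median depth of all non-DC droplets was 7626 UMIs in naive and 6980 in papain cells, against 15167 and 16181 in CD301b-hi cDC2s.

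The comparison of papain with naive cells asked how the protease and inhibitor mRNAs differed between the conditions within each class. A gene was counted as higher or lower at a 1.5-fold difference. Background shares are over the 2637 to 2789 genes that reached 50 CPM in either of the groups compared, as 7 of the 10 did in LCs and cDC1s and 8 in each cDC2 class. Comparisons of the conditions in different classes use different cells but the same libraries, and the cDC2 classes adjoin each other on 1 antibody.

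In LCs, Cst3, Ctsz, Ctsc and Lgmn were higher and Ctsl lower, 5 of the 10 genes (background 18% higher and 8.15% lower). Of the 7 genes with 50 CPM, 4 were higher and 0 lower. The log2 ratios of papain over naive were 1.34 for Cst3 (1.32 to 1.36), 1.29 for Ctsz (1.22 to 1.35), 0.99 for Ctsc (0.84 to 1.15), 0.67 for Lgmn (0.51 to 0.83) and -1.35 for Ctsl (-1.74 to -0.96). Ctsh was at 0.57 and Ctsa at 0.56, just inside the limit. Ctsb (0.02) and Ctsd (0.15) had intervals that included 0, and Ctss was at -0.12 (-0.17 to -0.06). The median over the 10 genes was 0.57, against 0.12 over all genes compared.

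In cDC1s, Ctsz, Ctsh and Ctsc were higher and Ctsa, Ctsb, Ctsd and Ctsl lower, 7 of the 10 genes (background 11.3% higher and 8.19% lower). Of the 7 genes with 50 CPM, the 3 were higher and Ctsb was lower. Log2 ratios were 0.81 for Ctsz, 0.78 for Ctsh, 0.73 for Ctsc and -0.72 for Ctsb (-0.86 to -0.59). Ctss was at 0.57 (0.49 to 0.65) and Cst3 at 0.52. T cell transcripts (Cd3d, Cd3e, Cd3g, Trac, Trbc2) summed to 192 CPM in naive and 25.4 CPM in papain cDC1s. Without cells that held a T or B cell UMI (444 of 578 naive and 209 of 235 papain cells left), the cDC1 ratio was -0.21 for Ctsd, -0.42 for Ctsa, 1.21 for Ctsc and 0.34 for Cst3, and 5 of the 10 genes passed.

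In CD301b-lo cDC2s, Lgmn, Cst3, Ctsh and Ctsz were higher and Ctsl, Ctsd and Ctsa lower (background 15.9% higher and 11.3% lower). In CD301b-int cDC2s, Cst3 and Lgmn were higher and Ctsl and Ctsd lower (background 14.6% and 9.41%). In CD301b-hi cDC2s, Lgmn, Cst3 and Ctsc were higher and Ctsl and Ctsa lower (background 13.1% and 8.85%). Of the 8 genes with 50 CPM, 4 were higher and 1 (Ctsa) lower in CD301b-lo cDC2s. These counts were 2 and 0 in CD301b-int and 3 and 1 (Ctsa) in CD301b-hi cDC2s. Lgmn had log2 ratios of 0.95 (0.84 to 1.06), 0.87 (0.77 to 0.96) and 1.00 (0.91 to 1.09) in the 3 classes, and Cst3 of 0.88, 0.91 and 0.63. Lgmn and Cst3 were the 2 of the 10 genes that were higher by 1.5-fold in all 3 cDC2 classes with all cells and no rescaling. The medians over the 10 genes were -0.01, 0.10 and 0.24, against 0.11 over all genes in each class. Relative to the median ratio of genes with 10 CPM, Cst3 and Ctsc in CD301b-hi cDC2s no longer reached 1.5-fold.

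With all cells, the Ctsc ratio differed between the cDC2 classes. Its log2 ratio of papain over naive was 0.00 (-0.08 to 0.09) in CD301b-lo, 0.24 (0.17 to 0.32) in CD301b-int and 0.60 (0.54 to 0.67) in CD301b-hi cDC2s. Without 2 naive mRNA clusters with macrophage markers, described below, these ratios were 0.58, 0.48 and 0.72. Ctsh and Ctsz were at 0.74, 0.56 and 0.49 and at 0.59, 0.51 and 0.39. The differences between these ratios were not tested.

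**Figure D2:**
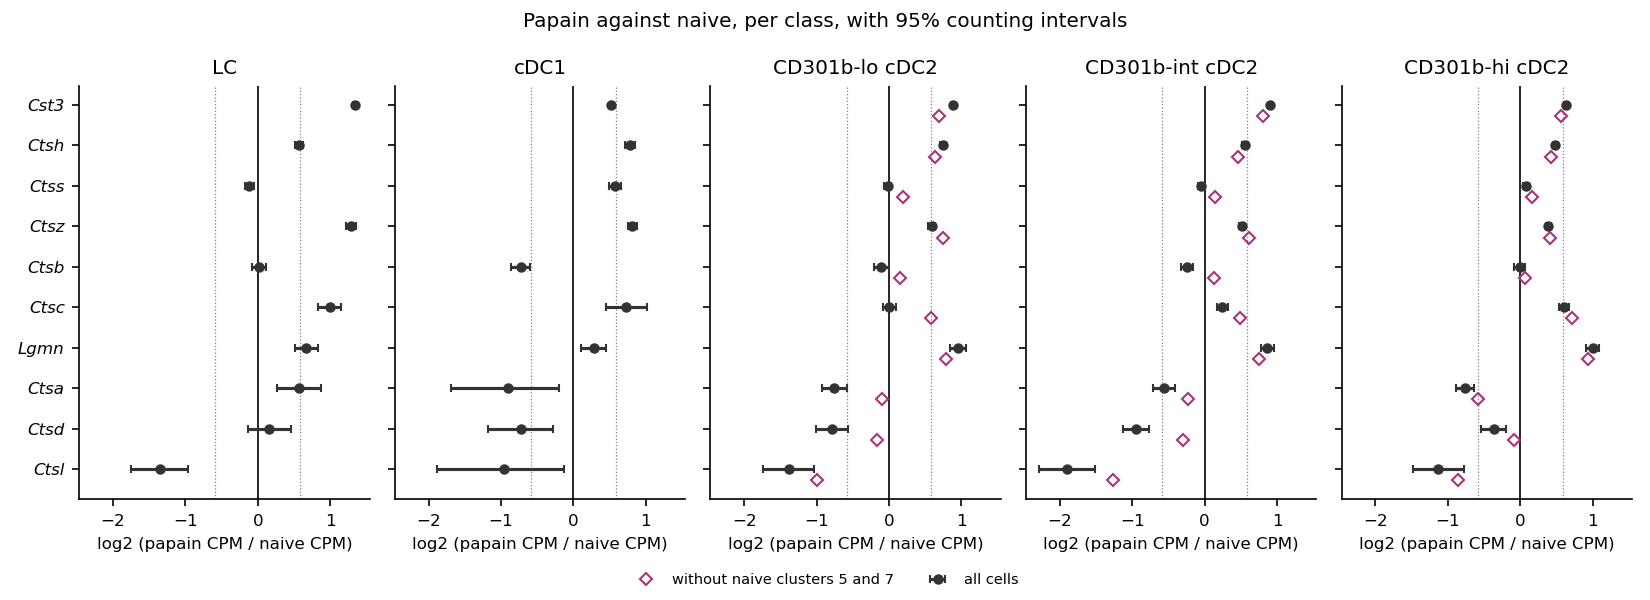
Log2 ratio of papain over naive levels (x axis) of each gene (y axis) in the 5 classes, with 95% counting intervals. Open diamonds leave out 2 naive mRNA clusters with macrophage markers, and dotted lines mark 1.5-fold. Cst3 and Lgmn stay right of 0 in every class, while Ctsa and Ctsd in cDC2s, left of 0 with all cells, move toward 0 without these clusters, and Ctsb and Ctss of the CD301b-lo and -int classes cross it.

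The naive cDC2 levels depended on a small group of cells. The authors' mRNA clusters, 7 naive and 9 papain ones and given for cDC2s alone, included naive cluster 5 with 246 cells, in which 9 macrophage genes summed to 528 CPM, against at most 48.1 CPM in naive clusters 1 to 4 and 6. Its highest macrophage genes were Apoe (139 CPM), Csf1r (137 CPM) and C1qa (64.5 CPM), and its migratory DC genes (Ccr7, Fscn1, Cacnb3, Relb) summed to 2143 CPM against 4445 CPM or more in the others. It also had the most Mgl2 (276 CPM) and Cd209a (257 CPM), and is called here by its number. Naive cluster 7, with 50 cells, had 188 CPM of macrophage and 799 CPM of T cell genes. Summed macrophage genes were 165, 132 and 42.0 CPM in naive CD301b-lo, -int and -hi cDC2s and 46.4, 22.3 and 23.4 CPM in papain ones.

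Naive cluster 5 had the highest level among naive clusters of Ctsa (121 CPM), Ctsb (256 CPM), Ctsc (334 CPM), Ctss (938 CPM), Ctsz (733 CPM) and Ctsl (32.7 CPM), and naive cluster 7 the highest of Ctsd (100 CPM), followed by cluster 5 (80.2 CPM). Cst3 was low in cluster 5 at 1729 CPM and highest in cluster 1 at 4208 CPM. Without clusters 5 and 7, the naive CD301b-lo cDC2s held 481 of their 658 cells, and their Ctsa level was 36.8 instead of 58.0 CPM, Ctsc 116 instead of 172 CPM and Ctsd 23.5 instead of 36.3 CPM. The papain over naive ratio in CD301b-lo cDC2s was then -0.10 for Ctsa, 0.58 for Ctsc, -0.16 for Ctsd and 0.19 for Ctss. In CD301b-hi cDC2s it was -0.58 for Ctsa, 0.72 for Ctsc and 0.56 for Cst3, and 3 of the 10 genes (Lgmn, Ctsc, Ctsl) passed instead of 5. Lgmn kept 0.79, 0.75 and 0.93 in the 3 classes and Cst3 0.70, 0.81 and 0.56, and Ctsl -0.996, -1.26 and -0.86.

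Papain cDC2 clusters differed in their protease levels. Papain cluster 2 (1294 cells, 67.2% CD301b-hi) had 476 CPM of Ctsc (467 to 486) and 303 CPM of Lgmn, and papain cluster 3 (898 cells) had 132 CPM of Ctsc and 176 CPM of Lgmn. Papain cluster 4 (671 cells, 78.5% CD301b-lo) had the most Ctsh at 1403 CPM and the most Ctsz at 981 CPM, with 137 CPM of Ctsc. Papain cluster 9 (216 cells) was lowest in Cst3 (1508 CPM), Ctsz (298 CPM), Ctsh (435 CPM) and Ctsc (89.6 CPM), and had 94.7 CPM of T cell and 114 CPM of monocyte genes. The clusters were made from these cells' mRNA, so the differences are a description.

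**Figure D3:**
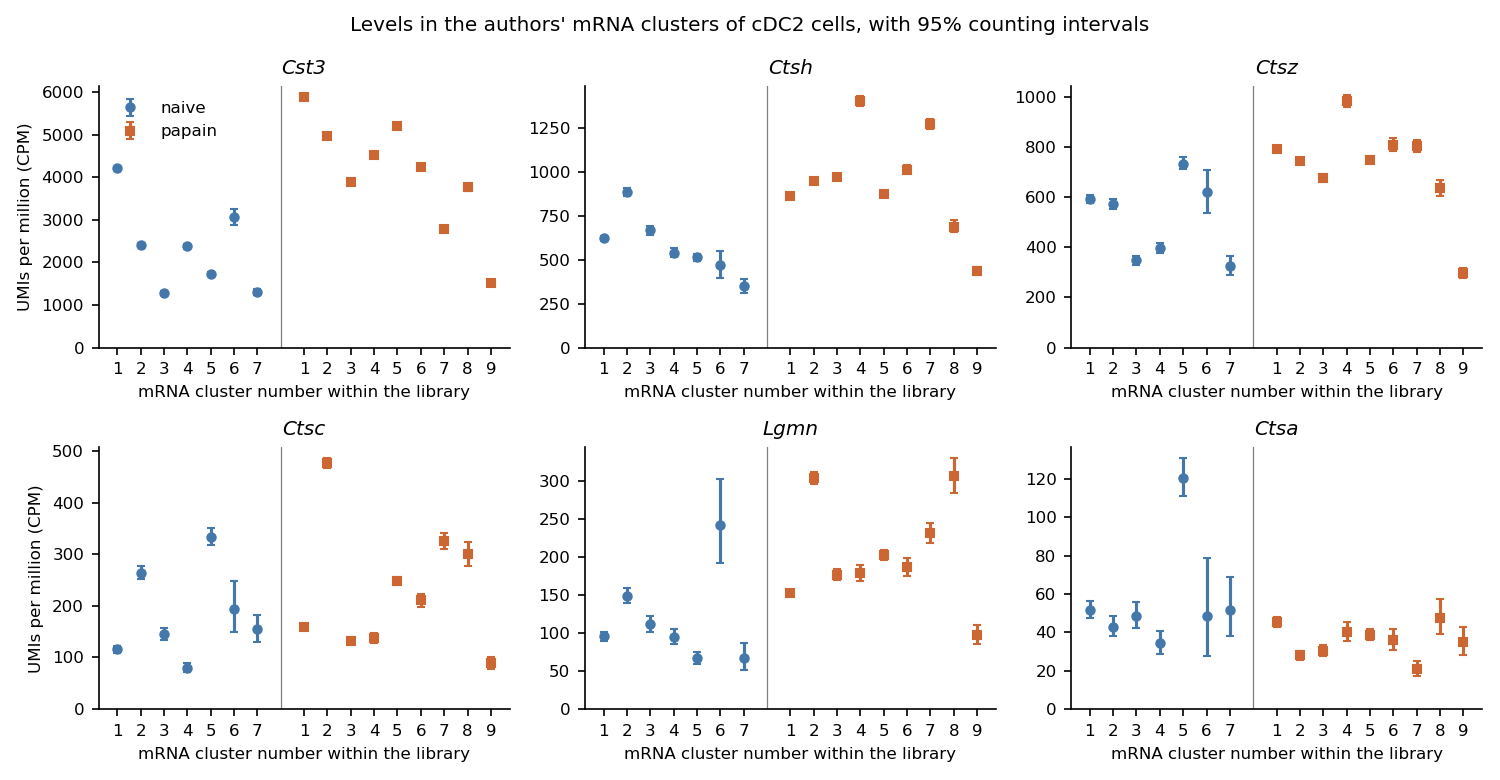
Level (y axis, CPM) of 6 genes in the mRNA clusters of cDC2s (x axis, numbered within a library), naive as blue circles and papain as orange squares, with 95% Poisson intervals. Ctsa and Ctsz are highest among naive clusters in cluster 5, and Ctsc reaches 476 CPM in papain cluster 2.

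CD301b-hi cDC2s were compared with CD301b-lo cDC2s because surface CD301b divides the class that the study is about. In naive cells Ctsl alone passed 1.5-fold, at a log2 ratio of -0.95 (background 7.53% higher and 5.06% lower). Ctsl was below 50 CPM, and of the 8 genes with 50 CPM 0 were higher and 0 lower. Cst3 was at 0.48 (0.45 to 0.50) and Ctsc at 0.15 (0.06 to 0.25). In papain cells Ctsc was higher at 0.75 (0.70 to 0.81) and Ctsl lower at -0.70 (background 4.75% and 2.8%). Of the 7 genes with 50 CPM there, Ctsc alone passed. Without clusters 5 and 7 the naive ratio of Ctsc was 0.61 and that of Ctsa 0.60, so the naive and papain ratios of Ctsc came close once these cells were left out.

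LCs were compared with all cDC2s. In naive cells Ctsa, Ctsc and Ctsd were lower in LCs and no gene was higher (background 7.65% higher and 13.3% lower), with log2 ratios of -1.52 (-1.81 to -1.24), -1.37 (-1.52 to -1.22) and -0.68. Of the 8 genes with 50 CPM, Ctsa and Ctsc were lower. In papain cells Cst3, Ctsl and Ctsb were higher and Ctsc and Lgmn lower (background 4.67% and 6.38%), at 0.89, 0.75, 0.63, -0.81 and -0.79. Of these, Ctsl did not reach 50 CPM. Ctsz was on opposite sides, at -0.50 (-0.57 to -0.44) in naive and 0.32 (0.29 to 0.34) in papain cells. Without clusters 5 and 7 the naive ratios were -1.19 for Ctsa, -1.12 for Ctsc and -0.17 for Ctsd, and Ctsb (0.73), Ctsl (1.03) and Lgmn (-0.61) then passed while Ctsd did not.

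The comparison of cDC1s with cDC2s gave the largest differences of Ctsc and Ctsa. In naive cells Ctsc was lower at -2.50 (-2.67 to -2.33), Ctsa at -2.33 (-2.62 to -2.05) and Ctss at -0.61, while Cst3 was higher at 1.15 and Ctsb at 1.13 (background 13.1% higher and 17.1% lower). Ctss was within 1.5-fold without naive clusters 5 and 7 (-0.46), without cells with T or B cell UMIs (-0.54) and after scaling to the median ratio. In papain cells Ctsa was lower at -2.56, Ctsc at -2.20 and Lgmn at -0.64, and Cst3 was higher at 0.86 (background 9.92% and 13.5%). Of these, Ctsa did not reach 50 CPM. Ctsb was at 0.51. The median ratio of genes with 10 CPM was itself -0.10 in this papain comparison, and relative to it Ctsb passed 1.5-fold and Lgmn did not.

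By the ratio of variance to mean, which grows with level, Cst3 had the widest spread over cells. Among the cells with 8392 UMIs or more, thinned to that number, naive cDC1s held a median of 28 Cst3 UMIs with a 10th to 90th percentile of 6 to 120, and papain cDC1s a median of 50 (18.6 to 162). Papain LCs held a median of 56 (14 to 154) against 20 (5 to 61.8) in naive LCs. The variance of Cst3 was 23.0 to 71.2 times its mean over the 10 groups. For Ctsz the multiple was highest in papain LCs at 5.55, and for Ctsc in naive CD301b-hi cDC2s at 4.39. A multiple of 1 is what counting alone would give.

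**Figure D4:**
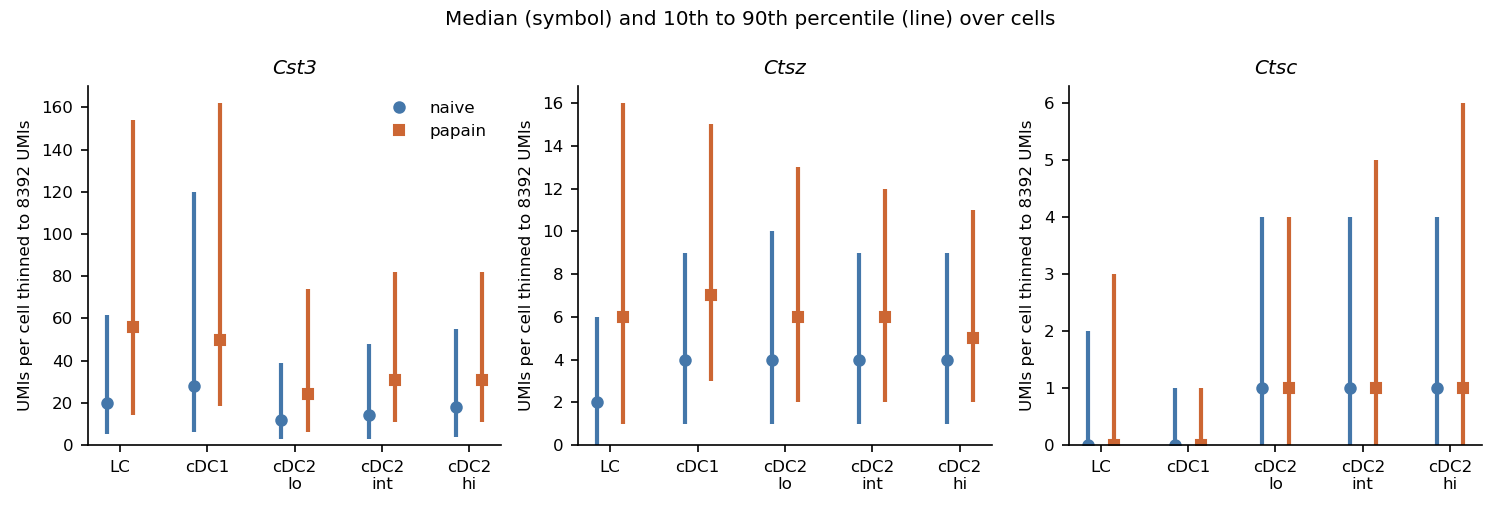
UMIs per cell after thinning to 8392 UMIs (y axis) of Cst3, Ctsz and Ctsc in the 5 classes (x axis), naive in blue and papain in orange. Symbols are medians and lines run from the 10th to the 90th percentile over cells. The Cst3 line of naive cDC1s runs from 6 to 120 UMIs.

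Cst3 levels rose over CD11c quartiles in naive cDC1s and fell over MHC II quartiles in papain LCs. They did not rise or fall steadily in papain cDC1s or naive LCs, and other pairs of antibody and class are not given for Cst3. Antibody values are relative to the other antibodies of the same cell, so a high value can reflect low values of the rest, and quartiles are of cells in 1 library. Across CD11c quartiles of naive cDC1s, Cst3 was at 2378, 4152, 5393 and 11300 CPM, while T cell transcripts were at 540, 145, 75.5 and 45.1 CPM. The part of T cell RNA in these Cst3 levels was not tested. In papain cDC1s the same quartiles were at 8345, 7710, 8541 and 10290 CPM, with T cell transcripts at most 36.8 CPM. Across MHC II quartiles of papain LCs, Cst3 was at 12042, 9601, 7491 and 4718 CPM and Ctsz at 1325, 1019, 724 and 513 CPM, and median depth went from 20717 to 12294 UMIs. Naive LCs had 4200, 3056, 3217 and 3388 CPM of Cst3.

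In papain cDC2s, Ctsc and Lgmn were highest where CD11c was lowest. Ctsc was at 407, 240, 189 and 173 CPM and Lgmn at 278, 210, 180 and 159 CPM over CD11c quartiles, and Ctsc at 176, 207, 255 and 322 CPM over CD301b quartiles. In naive cDC2s Ctsc was at 175, 170, 185 and 196 CPM over CD301b quartiles, and summed macrophage genes were at 190, 168, 48.2 and 41.3 CPM. Across CD11c quartiles of naive cDC2s the macrophage genes were at 33.3, 36.8, 54.4 and 270 CPM. Their part in the Ctsc levels was not tested.

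**Figure D5:**
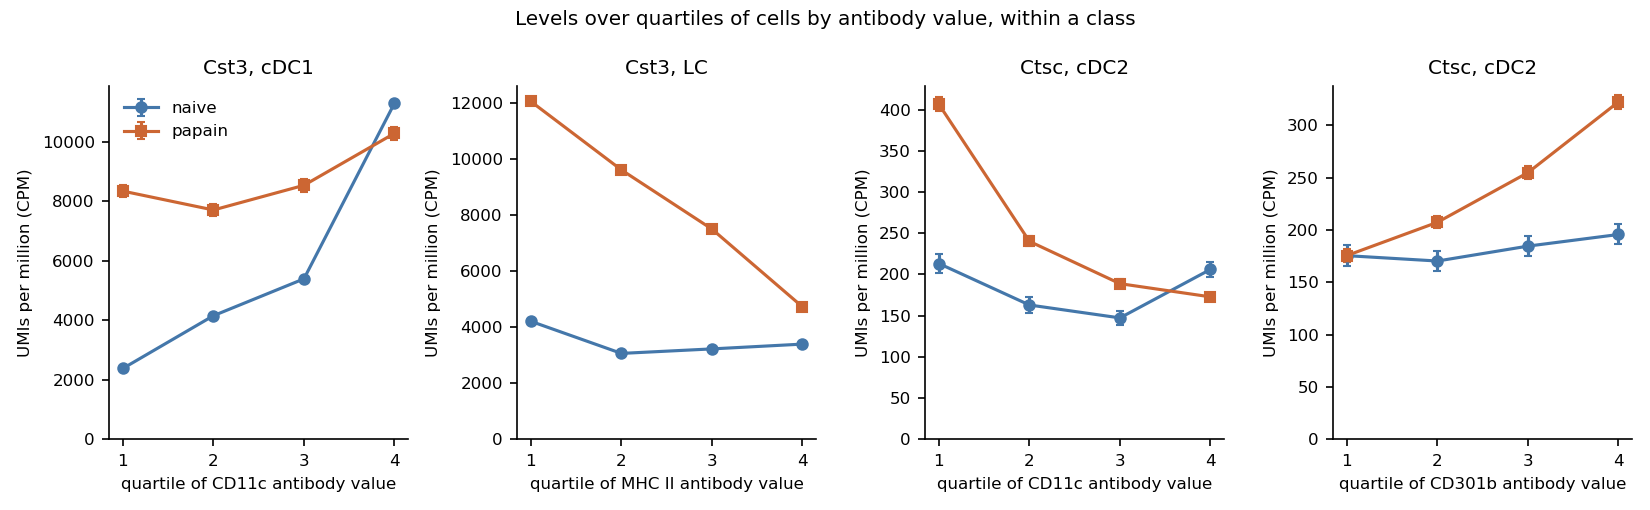
Levels (y axis, CPM, with 95% Poisson intervals) of Cst3 or Ctsc over quartiles of cells ranked by an antibody value (x axis) within a class, naive in blue and papain in orange. Cst3 reaches 11300 CPM in the top CD11c quartile of naive cDC1s and 4718 CPM in the top MHC II quartile of papain LCs.

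Cells rich in Cst3 tended to be rich in Ctsz. Spearman's rho of the thinned UMIs of the 2 genes, over cells with 8392 UMIs or more, was 0.17 to 0.67 over the 10 groups (median 0.30), highest in the 771 papain LCs. For Ctsh and Ctsz the median was 0.24 and for Ctsh and Cst3 0.15, and the pairs below these had medians of 0.14 or less. These correlations are over cells of 1 library that share capture and depth, and are a description.

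The genes whose levels ran most like each member's over the 10 class and library groups were found by Pearson's r of log2(CPM + 1) among 3287 genes. Among them were Nrp2 (r = 0.98) and Socs3 (0.98) for Ctsc, Ccdc71l (0.98) and Sik3 (0.96) for Lgmn, Commd6 (0.97) and F11r (0.97) for Cst3, Abhd16a (0.96) and Pdgfa (0.94) for Ctsb, Raly (0.93) and Pnpla8 (0.89) for Ctss, and B130021K23Rik (0.99) and Ythdc1 (0.97) for Ctsl. For Ctsd they were Rps12-ps19 (0.95) and Nr4a1 (0.93), for Ctsh Rpl18-ps2 (0.98) and Ptms (0.98), and for Ctsz Tln1 (0.97) and Oaz1-ps (0.96), and Cnot6l (0.98) was among those of Ctsa. The names ending in ps or with ps and a number are pseudogenes, whose reads can belong to their parent genes. The 10 points share 2 libraries, and the best of 3287 genes is high by selection.

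Further cathepsins were rare. Of the 6 in the list 5 were among the genes, and none reached 50 CPM in any class. Ctso was at 12.2 to 24.1 CPM. Ctsf was at 5.46 and 4.63 CPM in naive and papain LCs and at most 1.95 CPM in the other classes, a log2 ratio of LCs to cDC2s of 2.31 (1.55 to 3.07) in naive and 3.07 (2.56 to 3.59) in papain cells. Ctsw, known from cytotoxic lymphocytes, was at 7.37 CPM in naive CD301b-lo cDC2s and at most 3.69 CPM in the other classes, against 71.5 and 89.3 CPM in the non-DC droplets. Ctse and Ctsk were at most 0.651 CPM in a class.

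Other inhibitors of proteases were higher in papain than in naive cDC2s. Of 16 in the list 8 were among the genes and 4 reached 50 CPM in cDC2s, and all 4 (Cstb, Serpinb1a, Serpinb6b and Serpinb9) were higher by 1.5-fold in the 3 cDC2 classes, where 15.9%, 14.6% and 13.1% of all genes were (CD301b-lo, -int and -hi). The list's medians were 0.83, 1.11 and 0.99, against 0.11 over all genes in each class. Serpinb6b was at 420, 613 and 669 CPM in naive and 1183, 1622 and 1706 CPM in papain CD301b-lo, -int and -hi cDC2s, and Serpinb1a, an inhibitor of neutrophil-type serine proteases, at 99.9, 131 and 166 CPM and 199, 400 and 479 CPM. In LCs 5 of 5 with 50 CPM were higher, Serpinb6a among them (18% of all genes), and in cDC1s 1 of 4, Serpinb1a (11.3% of all genes). The inhibitor values in cDC2s were not recomputed without the naive mRNA clusters with macrophage markers.

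The other lysosomal lists were counted in the same way. In CD301b-hi cDC2s none of the 4 other lysosomal peptidases with 50 CPM was higher and 1 was lower (Napsa). The same counts were 0 and 1 of 4 for other hydrolases (Hexa lower), 0 and 2 of 9 for membrane proteins and cofactors (Psap and Gm2a), 0 and 1 of 13 for V-ATPase subunits (Atp6v0c), 0 and 0 of 1 for sorting receptors and 0 and 0 of 1 for regulators. Of all genes 13.1% were higher and 8.85% lower there. In LCs, where 18% of all genes were higher and 8.15% lower, 2 of 4 peptidases (Ifi30 and Napsa), 3 of 9 membrane proteins and cofactors (Cd63, Grn and Npc2) and 2 of 13 V-ATPase subunits were higher, and Atp6v0c was lower. Gm2a, the GM2 activator, was at 329, 236 and 161 CPM in naive and 35.0, 25.2 and 27.5 CPM in papain CD301b-lo, -int and -hi cDC2s. Psap, which encodes the saposin precursor, was at 515, 684 and 779 CPM and 291, 368 and 433 CPM, and Napsa, an aspartic protease, at 142, 70.2 and 60.9 CPM and 54.1, 26.0 and 21.0 CPM. Napsa was on the other side in LCs, at 48.0 CPM in naive and 82.5 CPM in papain cells. Atp6v0c was at 103, 114 and 101 CPM and 49.4, 42.8 and 41.8 CPM. Tfeb itself did not reach 50 CPM and was at 10.9 CPM in naive and 6.82 CPM in papain CD301b-hi cDC2s. Its part in the lysosomal levels was not tested. The values of these lysosomal lists in cDC2s were also not recomputed without the naive mRNA clusters with macrophage markers.

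The MHC class II genes were lower in papain than in naive cells. Of the 10 in the list, 5 reached 50 CPM in CD301b-hi cDC2s and all 5 were lower in papain cells, with a median of -1.27 (8.85% of all genes were lower). In CD301b-lo and -int cDC2s 7 of 9 and 7 of 7 were lower (11.3% and 9.41% of all genes), in LCs 3 of 4 (8.15%) and in cDC1s 3 of 5 (8.19%). Cd74, the invariant chain that Ctss cleaves, was at 10635 CPM in naive and 7324 CPM in papain CD301b-lo cDC2s, with log2 ratios of -0.54 there, -1.02 in CD301b-hi cDC2s and -0.14 in LCs. The MHC class II values in cDC2s were likewise not recomputed without naive clusters 5 and 7.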

How the data were processed

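mRNA and antibody tags of 2 libraries, 1 per condition, were read from the deposited per-cell tables. Per the submitters' processing notes, the authors used Cell Ranger 3.0.1, the mm10 build and Partek. The deposited expression values are log2(CPM + 1) per cell, from which UMIs were recovered (100% of values up to 50 UMIs were whole within 0.02). The deposited number of expressed genes is a count and equalled the genes above 0 in every cell. Antibody values were deposited as natural logs of each antibody's count over the cell's geometric mean. The antibodies to CD11b and CD24 were not used here.

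Cells were grouped by the authors' class and mRNA cluster labels, and UMIs were summed per group. Depth was 2682 to 57378 UMIs per cell. No doublet caller was run. Alternatives were a 2-fold limit, a pseudocount of 10 CPM, scaling to the median ratio, means over cells, thinning to 8392 UMIs (shallower cells left out), and leaving out cells by mitochondrial share or detected genes, by T, B or macrophage UMIs or by cluster. Members and lists were chosen with earlier results of these data known. Some items named by these rules are not reported here. Named genes were the 10 members, the other cathepsins, the 2 genes most like each member, and in each pathway list up to 2 highest and 2 lowest past 1.5-fold in the same direction in all cDC2 classes. Cd74, Tfeb, Cstb, Serpinb9, Serpinb6a, Hexa, Ifi30, Cd63, Grn and Npc2 were named after their values were seen. Analyses used Python 3.11.15, numpy 2.4.6 and scipy 1.17.1.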

Additional observations from a re-analysis of the deposited data

Results flagged for a closer look

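Ctsa, Ctss and Ctsz had opposite directions of the same contrast in different groups, each with counting intervals clear of 0 on both sides. None of these differences was tested, since each group is 1 library.

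Ctsa was higher in papain than in naive LCs (log2 ratio 0.56) and lower in the 4 other classes, lowest in cDC1s (-0.91), a difference of 1.47. Without cells that held T or B cell UMIs the cDC1 ratio of Ctsa was -0.42. The level intervals of Ctsa in naive and papain cDC1s (11.6 and 6.18 CPM) overlapped. In CD301b-lo, -int and -hi cDC2s the Ctsa ratios were -0.76, -0.56 and -0.76 with all cells. Without the naive mRNA clusters with macrophage markers they were -0.10, -0.22 and -0.58. Ctss was higher in papain cDC1s (0.57) and lower in papain LCs (-0.12), a difference of 0.69. Ctsz was lower in LCs than in cDC2s in the naive library (-0.50) and higher in the papain library (0.32), a difference of 0.82.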

How the results depend on the processing

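The count of the 10 genes past 1.5-fold stayed within 1.5 times its value in 79 of 99 recomputed cases. With a 2-fold limit the counts of papain against naive were 3 in LCs, 0 in cDC1s and 1, 1 and 2 in CD301b-lo, -int and -hi cDC2s (from 5, 7, 7, 4 and 5). The 2-fold counts of CD301b-hi against -lo were 0 in both libraries (from 1 naive and 2 papain), and in papain cells those of LCs and cDC1s against cDC2s were 0 and 2 (from 5 and 4). With a pseudocount of 10 CPM the counts were 4 in cDC1s and 3 in CD301b-hi cDC2s for papain against naive, and 0 (naive) and 1 (papain) for CD301b-hi against -lo. Scaling to the median ratio gave 3 in CD301b-hi cDC2s. The mean over cells, thinning, and leaving out cells with T or B cell UMIs each gave 1 for CD301b-hi against -lo in papain cells. Leaving out naive clusters 5 and 7, chosen after seeing the data, gave 3 for papain against naive in CD301b-hi cDC2s, and 3 and 5 for naive CD301b-hi against -lo and LCs against cDC2s.

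Of 880 recomputed log2 ratios 674 stayed within their counting interval. Among ratios whose first interval excluded 0, 8 changed sign. Sign changes of ratios whose interval included 0 are not counted here. An example is Ctss for papain against naive in CD301b-lo cDC2s, at -0.02 with all cells and 0.19 without the clusters. For papain against naive, Ctsb in CD301b-lo cDC2s was 0.0193 by the mean over cells and 0.15 without the clusters, Ctsb in CD301b-int cDC2s 0.0085 without cells with macrophage UMIs and 0.13 without the clusters, Ctss in CD301b-int cDC2s 0.00088 by the mean over cells and 0.15 without the clusters, and Ctss in CD301b-hi cDC2s -0.0123 after scaling. Ctsd in naive cDC1s against cDC2s was 0.0653 without the clusters. The cause was not tested. No paired analysis was possible because each condition is 1 library. Counting precision is lowest for Ctsl and for the 235 papain cDC1s.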

Other observations

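The 10 genes as a sum took 0.458% (CD301b-lo cDC2s) to 0.799% (cDC1s) of the UMIs of naive classes and 0.723% to 1.16% of those of papain classes, and each papain class was above its naive counterpart. Without Cst3 the sum was 1876 CPM in naive and 2753 CPM in papain LCs, 1916 and 2770 CPM in cDC1s, and 2307 and 2936 CPM in CD301b-hi cDC2s.

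Cst6, another secreted cystatin, was at 23.2 CPM in naive and 1.95 CPM in papain cDC1s and at most 0.599 CPM in the LC and cDC2 classes of either library. It was named after its values were seen.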
